A study of Homo sapiens with 105 samples.

Results

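Untreated Vk2/E6E7 cells are described here, that is, the control arrays of a study in which these cells were exposed to pro-inflammatory or immunomodulatory compounds (PICs) or to non-inflammatory compounds (NICs). The series has 105 arrays (Affymetrix U133 Plus 2.0), of which 54 are labelled as growth medium control (GM), and 53 of these were used, all but GM replicate 52. The PIC arrays, 33 in all, were treated for 6 h with TNF-α, Pam3CSK4, MALP2, imiquimod or nonoxynol 9 (N-9), the 18 NIC arrays were treated with the gels HEC or CMC, and GM cells stayed in medium alone. Vk2/E6E7 is 1 line of human vaginal keratinocytes immortalized with the papillomavirus genes E6 and E7, so all groups share those genes and 1 origin. The cells were grown in a serum-free keratinocyte medium with pituitary extract, epidermal growth factor and added calcium. The GM replicates were grouped here into runs of 3 consecutive replicate numbers, which gives 18 runs, the last of them with 2 arrays. The labels number the arrays as biological replicates and do not say which arrays share a culture, a day or a hybridization, so differences between runs may be technical.

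The vaginal mucosa is lined by a stratified squamous epithelium. Its basal cells divide and make the keratins KRT5 and KRT14, and on their way to the surface the cells leave the cycle, switch keratins and build a cornified envelope from precursors such as involucrin, loricrin and the small proline-rich proteins. The epithelium also senses microbes through pattern recognition receptors and answers with cytokines, chemokines, antimicrobial proteins and interferon-stimulated genes. An untreated culture of such cells can differ in how far these programs are switched on, and every treated array of the series is set against this baseline.

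Several arrays stood apart from their labels or from the rest. In 23 arrays, among them 14 GM arrays (GM replicates 16 to 24, 31 to 33, 53 and 54), 1118 probesets were listed in another order of their identifiers: over the largest block, of 1001 probesets, the 23 arrays correlated with the median array at r between 0.0513 and 0.114 as deposited, and at r between 0.804 and 0.883 once sorted the other way. These 1118 probesets were left out, which leaves 53495 probesets. In 109 genes a probeset brighter than the one kept was thus lost, by its level in the 39 GM arrays that hold the common order, and 100 genes had no other probeset. Of the genes in the lists used below, CXCL8, HPRT1, DNAJB9 and E2F1 lost a brighter probeset and CDC20 and DDIT4 their only one. Of the 53 GM arrays, 50 were most similar to another array of their own run. The array labelled GM 9 was most similar to CMC 2 (r = 0.9792, against 0.9452 for its own run, over 16377 probesets). The array labelled GM 22 had an ACTB 3′ minus 5′ difference of 2.05 on the log2 scale, a sign of RNA quality that ranged from 0.12 to 2.05 over the 53 arrays with a median of 0.38.

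The array labelled GM 15 went against its label. It was most similar to TNF-α 3 (r = 0.9921, against 0.9727 for its own run), and 334 of 16377 probesets differed more than 2-fold from its run mates. TNFAIP3, an inhibitor of NFκB signalling that is itself induced by TNF-α, measured 13.34 on the log2 scale in the array labelled GM 15, with 13.36, 13.45 and 13.46 in TNF-α replicates 1 to 3, against 10.46 and 10.21 in GM 13 and GM 14. CXCL10, a chemokine for T cells, measured 13.67 in that array and 13.74, 13.73 and 13.79 in the TNF-α arrays, against 8.21 and 8.33 in its run mates. CCL20 measured 11.25 there and 11.42, 11.58 and 11.65 in the TNF-α arrays, against 5.92 and 5.05 in its run mates. In TNF-α replicates 4 and 5 CXCL10 was lower, at 10.88 and 11.05. For these genes the array thus lay with TNF-α replicates 1 to 3 and apart from its run, and where a run mean of run 5 is named below it is also given without that array.

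All values below are quantile normalized log2 signals. A probeset or gene counts as above background when its median over the 53 GM arrays exceeds 8.11 (a linear signal of 276), the 95th percentile of 56 genes made only in other tissues, such as those of pancreas, muscle or retina. A gene is represented by its brightest probeset that names it alone. It can thus pass while its other probesets lie below background. By this rule 16377 of 53495 probesets (30.6%) and 9012 of 19666 genes (45.8%) lay above background. Signals of different probesets depend on their probes, so that an order of genes by signal is not an order by transcript amount, and fewer cells of a type cannot be told apart from less RNA per cell.

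The genes with the highest signals in untreated cells were those of protein synthesis, the cytoskeleton, respiration and the basal keratinocyte. The 30 highest medians lay between 14.82 and 15.13 and held many ribosomal proteins (RPS23, RPL7, RPS10 and RPL37A among them), the actin-binding protein TMSB10, ACTB, the tubulin TUBA1B, the translation factors EIF1 and EEF1A1, the metallothionein MT2A, the caveolar protein CAV1, and the mitochondrially encoded COX1, COX2 and ND4. SFN, the epithelial 14-3-3 protein stratifin, and S100A2, a calcium-binding protein of basal cells, were also in this group. Of the 100 highest genes, 38 were ribosomal proteins, and KRT14, KRT19 and KRT5 were the keratins among them.

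By their medians, all measured markers of the basal layer were above background, although SOX2 lost that state where 80% of arrays had to pass. All 15 measured basal genes passed the threshold, against 45.8% of all genes. KRT5 had a lowest value of 14.11, a median of 14.47 and a highest of 14.68, and KRT14 had 14.35, 14.73 and 14.93. The integrin chains ITGA6 and ITGB4 and the laminin chain LAMB3, which anchor basal cells to the basement membrane, had medians of 14.08, 11.13 and 12.83. Of 19 genes of junctions and desmosomes 18 passed (94.7%), DSP, PERP and CDH1 among them. The tight junction gene CLDN4 had a median of 6.15 and ranged from 3.19 to 9.25. SERPINB2, the inhibitor of plasminogen activators that the study uses as a marker of these cells' response, ranged from 10.61 to 14.77 (median 13.41), and GAPDH, a glycolytic enzyme used for normalization, from 14.19 to 14.62 (median 14.38). The line thus carried the markers of its labelled cell type.

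Markers of later differentiation were present in part. Of 25 measured suprabasal and cornified genes 15 lay above background (60%, against 45.8% of all genes), among them the protease inhibitor CSTA, the protease KLK5, SPRR1B, KRT10 and KRT16. KRT1, LORICRIN, FLG, CNFN and CRNN had medians below it, between 4.91 for LORICRIN and 7.40 for KRT1. Of 16 genes of simple or glandular epithelium 5 passed (31.2%): KRT18, KRT8, KRT7, PAX8 and AGR2. The other probesets of KRT7, PAX8 and AGR2 had medians between 1.95 and 7.45, below background.

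Markers of other cell types were mostly at background level. None of 20 leukocyte markers, PTPRC, CD3D and CD74 among them, and none of 6 melanocyte markers passed. Of 18 genes of fibroblasts and endothelium 4 did (22.2%, against 45.8% of all genes), the intermediate filament VIM (7.50 to 12.50, median 10.91), COL1A1, FAP and PECAM1. COL1A2, COL3A1, PDGFRB, CDH5 and VWF had medians between 3.29 and 6.5. COL1A1, a fibrillar collagen chain of fibroblasts, had a lowest value of 9.36, a median of 10.67 and a highest of 12.29, FAP had 3.58, 8.56 and 9.13, and PECAM1, of endothelium, had 7.62, 8.19 and 8.86, its median just above the threshold. The other PECAM1 probesets had medians between 2.22 and 6.67, below background. Among the other COL1A1 probesets a single median, 9.14, was above background, and that probeset correlated with the one used at r = −0.14 over the run means. The rest had medians between 6.05 and 8.03. The leukocyte and melanocyte markers were thus below background and the fibroblast and endothelial ones in part, and the share of other cells in the cultures was not tested.

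Few of the receptors that sense microbes passed the threshold. Of 30 pattern receptors and their adaptors 10 did (33.3%, against 45.8% of all genes): the adaptors IRAK1, MYD88 and TOLLIP, the RNA sensors RIGI and IFIH1, the DNA sensor CGAS with its partner STING1, NOD1, NLRP1, and TLR2 as the only Toll-like receptor. TLR2, the receptor shared by Pam3CSK4 and MALP2, ranged from 7.76 to 9.67 with a median of 8.48. Its partners TLR1 and TLR6 had medians of 5.20 and 5.98, and TLR7, the receptor for imiquimod, had 6.13. TLR3, for double-stranded RNA, sat at the threshold with 8.03, and NOD2 had a median of 6.27 but a mean of 9.25 in run 15.

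Receptors for cytokines were present in part. Of 14 genes of the TNF receptor family and its adaptors 10 passed (71.4%, against 45.8% of all genes), or 8 of 12 without the adaptors FADD and TRADD. TNFRSF1A, the main receptor for TNF-α, ranged from 10.41 to 12.34 (median 10.93), whereas TNFRSF1B had a median of 4.68. Of 30 receptor chains for interleukins and interferons 18 passed (60%), including both chains for interferon gamma (IFNGR1, IFNGR2), both for type I interferon (IFNAR1, IFNAR2), IFNLR1 with IL10RB for interferon lambda, IL1R1 with IL1RAP, and IL6R with IL6ST. Receptors of lymphoid and myeloid cells such as IL2RG, IL7R, CSF2RA and CSF2RB did not. The other probesets of IFNAR1, IFNAR2 and IFNLR1 had medians between 6.17 and 7.89, below background. Of 12 nuclear hormone receptors and related genes 6 passed (50%, against 45.8% of all genes). They were NR3C1 for glucocorticoids (median 12.24), PPARD, VDR, RXRA, RARG and ESR1 for estrogen (median 9.14). The other probesets of ESR1 had medians between 3.47 and 7.01, below background, so that its state depends on the probeset. PGR, the progesterone receptor, had a median of 5.5.

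The genes that the viral oncoproteins act on were measured as well. E6 directs p53 to degradation and E7 binds the RB protein. Of 14 genes of this axis 12 were above background (85.7%, against 45.8% of all genes). CDKN2A, the gene of the p16 inhibitor, ranged from 12.66 to 13.98 (median 13.11), and RB1 had a median of 11.61. CDKN1A, the p21 inhibitor that p53 induces, ranged from 9.61 to 12.36, with its highest run mean, 12.29, in run 15. TERT, the catalytic subunit of telomerase, had a median of 6.31, below background.

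A mixed list of chemokine receptors and genes for HIV entry and attachment lay above background in 7 of 19 cases (36.8%, against 45.8% of all genes). The genes for entry and attachment bear on the use of these cells in microbicide tests. CD4 had a median of 6.00 and CXCR4 a median of 7.67, both below background. The syndecans SDC1 and SDC4, heparan sulfate proteoglycans that can bind virus, had medians of 13.39 and 13.73. UGT8, which makes galactosylceramide, had a median of 9.24 with run means between 5.10 (run 14) and 10.27 (run 9).

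**Figure D1:**
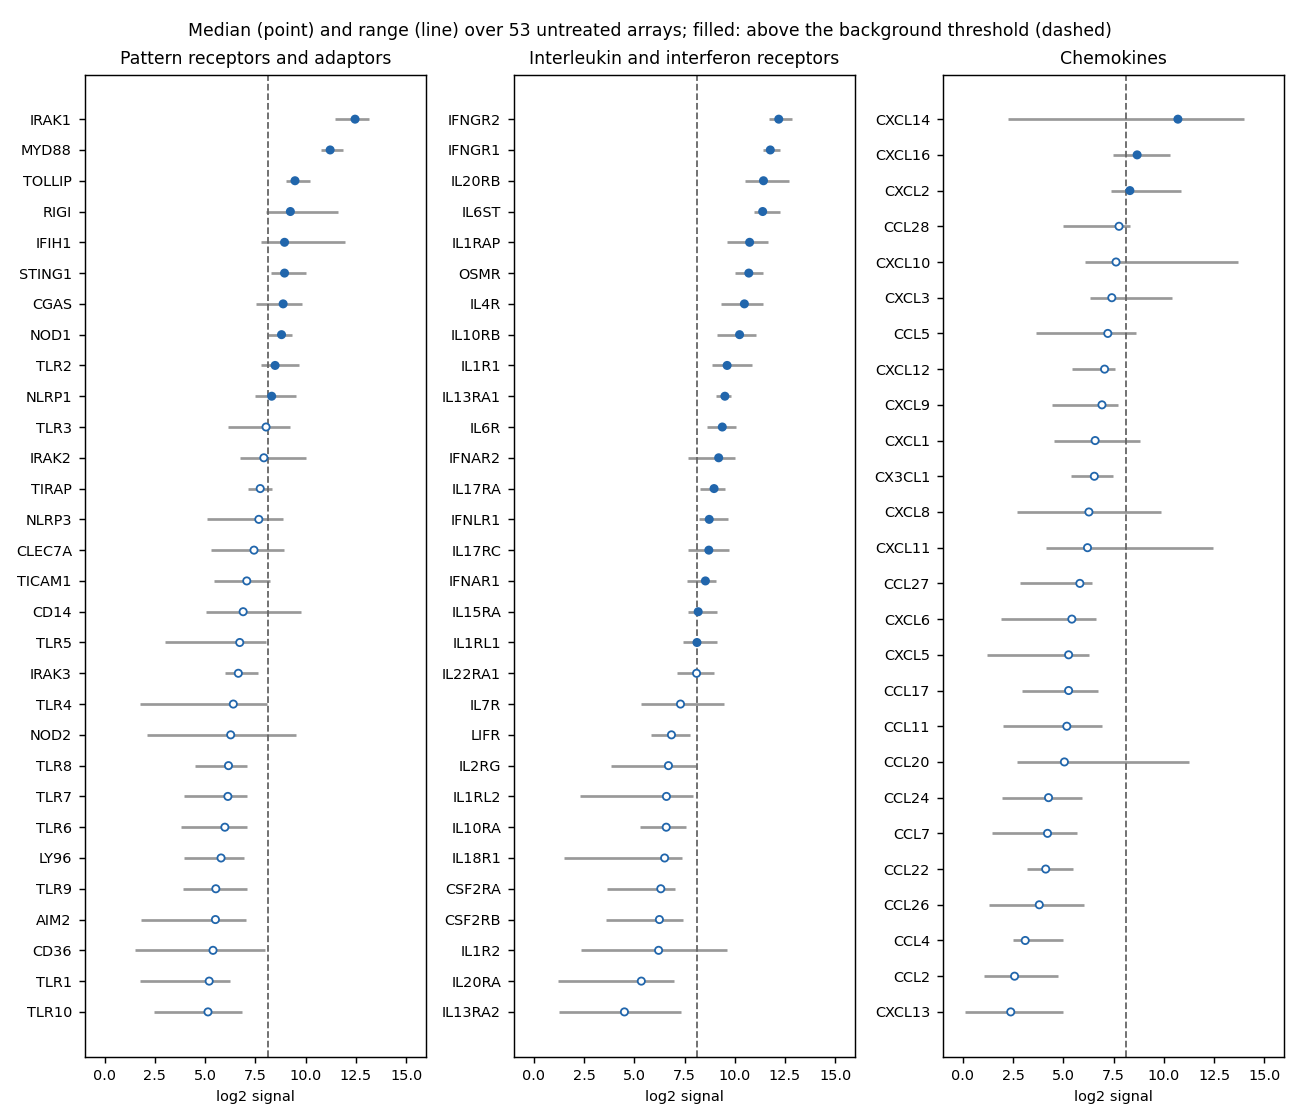
Levels of receptor and chemokine genes in untreated cells; each point is the median and each line the range over 53 GM arrays in log2 signal, and filled points lie above the background threshold of 8.11. CXCL8 is shown by the dimmer of its probesets. Of the pattern receptors 10 of 30 are filled, of the interleukin and interferon receptors 18 of 30, and of the chemokines 3 of 26.

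The cytokines above background were mostly of the IL-1 family and the growth factors that keratinocytes make for themselves. Of 55 genes 16 passed (29.1%, against 45.8% of all genes). IL1B had a median of 12.45 (10.24 to 13.30), IL1A of 12.04 (8.67 to 13.31) and IL1RN, the IL-1 receptor antagonist, of 11.94 (9.98 to 13.31). IL18, the macrophage inhibitory factor MIF, the EGF receptor ligands TGFA, EREG and HBEGF, VEGFA and the death receptor ligand TNFSF10 also passed. TNF had a median of 6.39, IL6 of 6.64 and IFNB1 of 2.89, all below background.

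Chemokines were mostly below background in untreated cells. Of 26 genes 3 passed, against 45.8% of all genes: CXCL14, a chemokine of resting epithelium, the membrane-bound CXCL16, and CXCL2. CXCL8, the neutrophil chemokine IL-8, had a lowest value of 2.71, a median of 6.27 and a highest of 9.85, the last in the array labelled GM 15. Its brighter probeset, which was left out for its order, had a median of 8.23 in the 39 GM arrays of the common order (6.94 to 11.98), just above the threshold, so that the state of CXCL8 depends on the probeset. CCL20 ranged from 2.69 to 11.25 with a median of 5.05, the highest value again in that array. Antimicrobial and acute phase genes lay above background in 8 of 22 cases (36.4%, against 45.8% of all genes), including the calprotectin subunits S100A8 and S100A9, the protease inhibitors SLPI and PI3, and the iron-binding lipocalin LCN2, while the defensin DEFB1 (median 5.53) and LTF (median 2.66) were not.

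Most genes that were above background differed between runs by more than within them. In the moderated F test of limma over 18 run means 32085 of 53495 probesets passed a Benjamini-Hochberg adjusted p of 0.05 (60%), and 16057 of the 16377 above background did (98%). Counted by genes, 13568 of 19666 (69%) passed, and 8850 of 9012 above background (98.2%). For genes above background the between-run SD had a median of 0.305 on the log2 scale and the within-run SD a median of 0.154, and 92.5% had the larger SD between runs. The gap from the lowest to the highest run mean had a median of 1.17. It reached 2 or more, that is, at least 4-fold, in 1106 genes (12.3%), and stayed under 1 in 35.3%. Without the arrays labelled GM 9, 15 and 22 the medians were 0.311 between and 0.137 within runs.

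**Figure D2:**
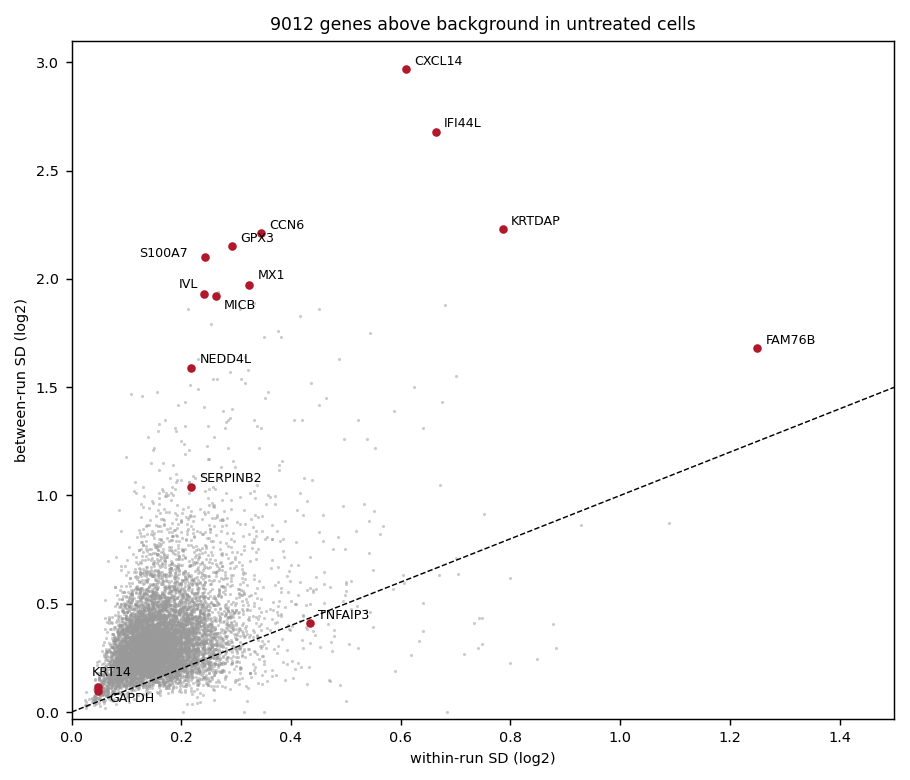
Within-run SD (x) against between-run SD (y), both in log2, of the 9012 genes above background in untreated cells; the dashed line marks equal SDs and named genes are red. Most genes lie above the line, CXCL14 reaches 2.97 between runs, and TNFAIP3 falls just under the line.

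The genes that varied most were of differentiation, antimicrobial defence, the interferon response and the matrix, with others such as MICB. Among genes whose mean over the 53 arrays was above background and that passed the F test, CXCL14 had the largest between-run SD (2.97), and its lowest, median and highest values were 2.26, 10.70 and 14.00. It was followed by KRTDAP, a secreted protein of differentiating keratinocytes (2.23), CCN6 (2.21), the extracellular glutathione peroxidase GPX3 (2.15), the psoriasin gene S100A7 (2.10), KRT1 (1.98), the antiviral GTPase MX1 (1.97), LCN2 (1.94), IVL (1.93) and MICB (1.92), a stress-induced ligand of the receptor NKG2D. IFI44L, an interferon-stimulated gene whose median was above background but whose mean, 7.99, was not, had 2.68. Without the arrays labelled GM 9, 15 and 22 the SDs of the first 10 genes ranged from 1.83 for MICB to 3.05 for CXCL14. Since these genes were ranked by their spread between runs, their SDs are a description. Where other probesets of the same gene lay above background they could follow the same course: a second CXCL14 probeset correlated with the first at r = 1.00 over the 18 run means, one of GPX3 at 0.99 and one of NEDD4L at 0.99. Not all did so to the same extent. For FAM76B a probeset above background correlated at 0.81, but its run means spanned 1.39, against 6.77 for the one used. The other CCN6 probeset, with a median of 6.85 below background, correlated at −0.15.

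CXCL14 showed how wide the baseline was. Its run mean was 13.84 in run 14, 13.11 in run 15 and 12.86 in run 10, and it was 5.73 in run 1, 5.33 in run 13 and 2.59 in run 17. The last 3 were below background, so the range has only a lower bound: the highest run mean was at least 53-fold above the lowest, taken at the threshold of 8.11. In run 5 GM 13 and GM 14 measured 10.77 and 10.89, and the array labelled GM 15 measured 8.31.

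**Figure D3:**
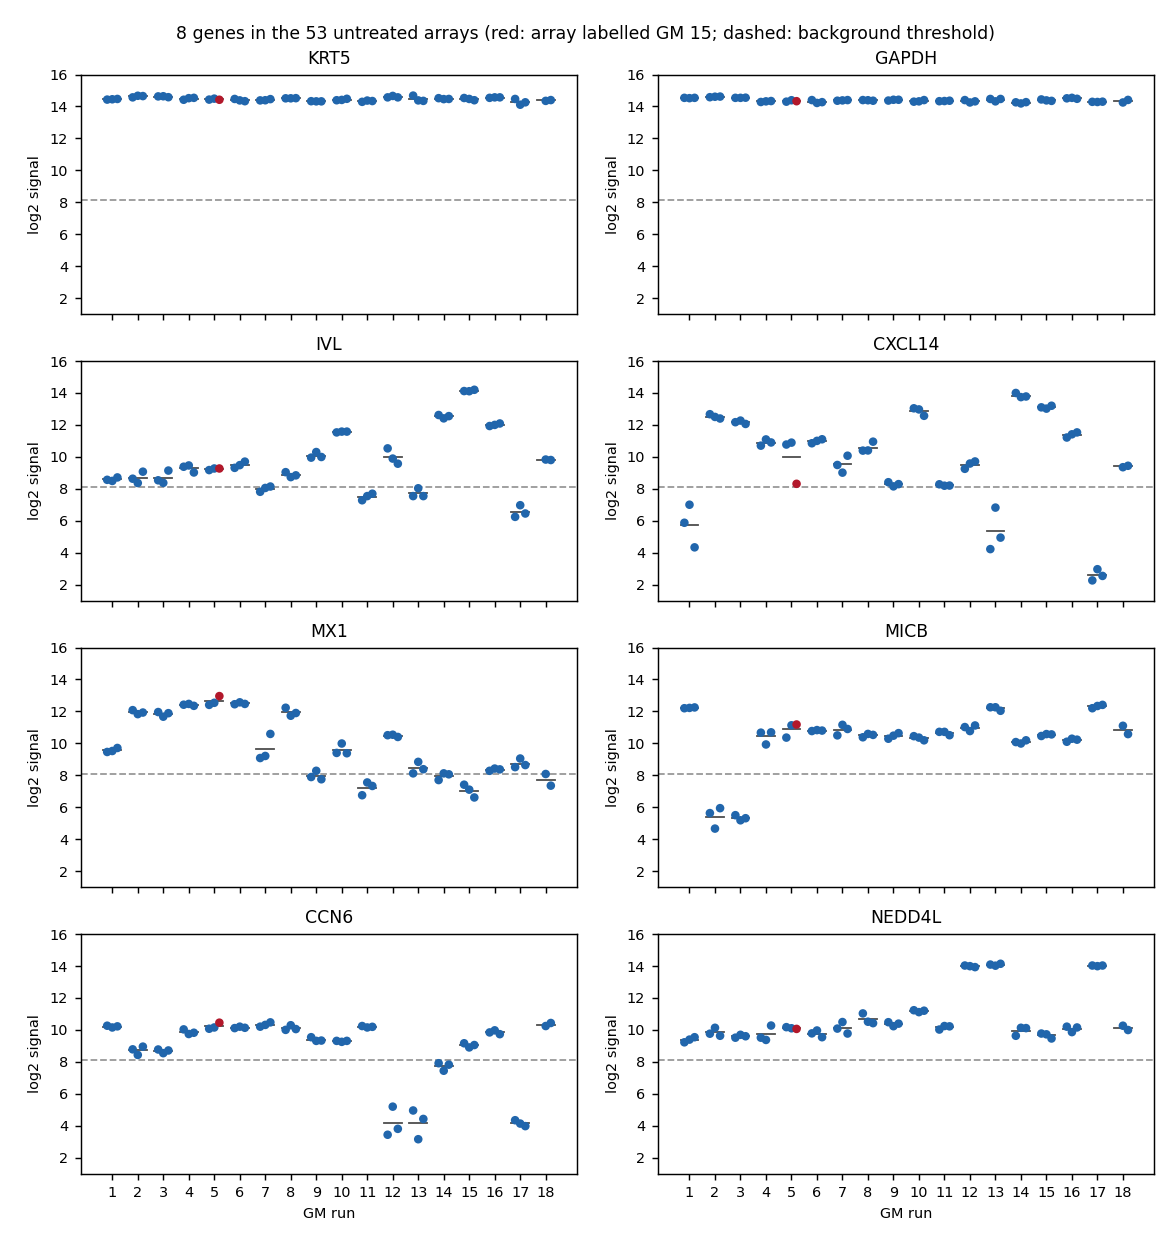
Log2 signal of 8 genes in each of the 53 GM arrays by run, with the run mean as a bar, the array labelled GM 15 in red and the background threshold of 8.11 dashed. KRT5 and GAPDH are level, IVL peaks in run 15, MX1 is high in runs 2 to 6 and 8, MICB is low in runs 2 and 3, and CCN6 is low and NEDD4L high in runs 12, 13 and 17.

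By gene group, differentiation had the largest spread between runs. The median between-run SD was 1.45 for the 15 suprabasal and cornified genes above background and 1.21 for 8 antimicrobial and acute phase genes, against 0.305 for all genes above background. It was 0.875 for interferon-stimulated genes, 0.734 for the plasminogen and serpin group, 0.728 for cytokines and growth factors, and 0.643 for immediate early genes and feedback regulators of MAPK. For receptors of interleukins and interferons it was 0.322, and for reference genes 0.179. In all these lists but the antimicrobial genes, the cytokines and the reference genes every member above background passed the F test, which 98.2% of all genes above background did too.

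The cornified genes moved together and peaked in run 15. Their mean deviation from each gene's mean over runs was 2.97 in run 15, 1.61 in run 14, 1.42 in run 16 and 1.07 in run 10, and was −1.70 in run 11, −1.29 in run 17 and −1.05 in run 7. Involucrin (IVL) had run means of 14.14 in run 15, 12.53 in run 14 and 12.01 in run 16, against 6.55 in run 17 and 7.50 in run 11. In 4 runs its mean was below background, and the highest run mean lay at least 66-fold above the lowest, taken at the threshold of 8.11. Each array of run 15 lay above every array of the other runs for this gene, as the plot of single arrays shows. KRT1 measured 14.28 in all 3 arrays of run 15 and between 5.89 and 11.74 in the other 50.

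Run 15 stood apart in further genes, part of them also of differentiation. In it 39 of the 9012 genes above background had a run mean at least 1 above that of any other run, more than in the other 17 runs, where 0 to 6 genes did. Among members of the cornified list whose medians over all arrays were below background, LORICRIN reached 13.35 in run 15, CNFN 13.83 and FLG, the filaggrin gene, 10.99. S100A7 reached 14.66, S100A9 14.83 and S100A8 15.13. PRDM1, a transcription factor that the study counts among its PIC markers, was highest there too, with 10.31. In the same run MKI67, a marker of cycling cells, was at 11.38 and the cell cycle list at 0.66 above its mean. Genes of differentiation and of the cycle were thus high in the same run.

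Other keratinocyte genes moved less or differently. The mean deviation of the basal list stayed within −0.27 and 0.44 in every run. Single basal genes moved further, and 6 of 15 had run means at least 2 apart: SOX2, ITGB4, KRT15, DST, LAMB3 and ITGA3. In run 2, 6 members lay at least 0.5 above their mean, and in run 15, 6 lay at least 0.5 below it. Among adhesion genes DSC2, a desmosomal cadherin, ranged from 10.40 in run 2 to 14.32 in run 15, PKP1 from 9.63 in run 11 to 12.97 in run 15, and CLDN1 from 6.89 to 10.69 in the same runs. VIM was lowest in runs 14 and 15, with 7.77 and 7.96, and highest in run 2 with 12.44. SOX2, a transcription factor of progenitor cells, had run means between 6.72 in run 8 and 9.95 in run 11.

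**Figure D4:**
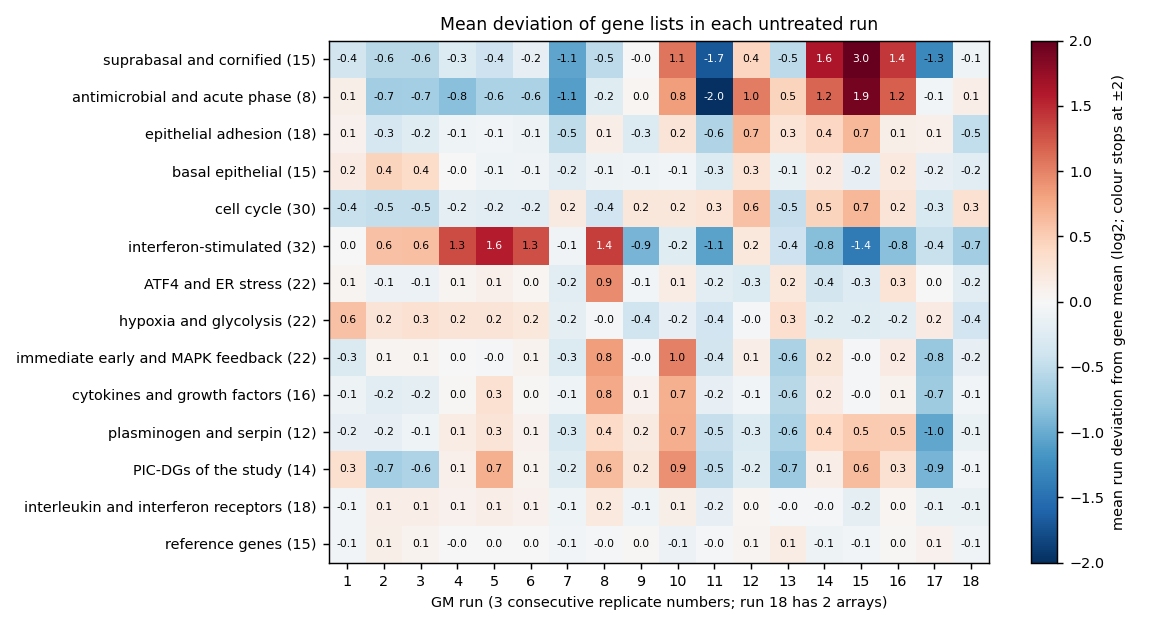
Mean deviation (log2) of the members above background from their own mean over runs, for 14 gene lists (rows, number of genes in brackets) and the 18 GM runs (columns); colour stops at 2 in either direction. Cornified and antimicrobial genes peak in runs 14 to 16, interferon-stimulated genes in runs 4 to 6 and 8, and the ATF4 and ER stress list in run 8, while reference genes stay near 0.

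Interferon-stimulated genes formed another block of runs. The list, genes that type I and III interferons induce through the ISGF3 factor, had 32 of 36 members above background (88.9%, against 45.8% of all genes). Its mean deviation was 1.3, 1.57, 1.29 and 1.39 in runs 4, 5, 6 and 8, and −1.41 and −1.07 in runs 15 and 11. Without the array labelled GM 15 the value of run 5 was 1.33. In runs 4, 5, 6 and 8, 30, 32, 31 and 31 of the 32 genes lay at least 0.5 above their mean, and in run 15 27 lay at least 0.5 below it. IFIT1, which binds viral RNA, had run means of 13.78 in run 5 (13.51 without the array labelled GM 15) and 8.61 in run 15. MX1 reached 12.64 in run 5 (12.48 without that array) and 7.04 in run 15, and in 5 of the 18 runs, runs 9, 11, 14, 15 and 18, its mean lay below background. IFI44L ranged from 1.73 to 11.68 over arrays with run means of 11.52 in run 8 and 2.53 in run 15.

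The interferon genes IFNB1, IFNA1 and IFNL1 themselves lay below background. Their highest single values were 4.47, 5.25 and 7.16, each under the threshold of 8.11. IFNK and IFNE had means below that threshold too. Both passed the F test between runs, as did IFNL1, though not under every setting. The pattern sensors that are also interferon-stimulated followed the list, RIGI with 10.90 in run 5 (10.55 without the array labelled GM 15) and 8.09 in run 11. IFIH1 had 11.07 in run 5 and 7.96 in run 15, and without that array run 5 was at 10.62 and run 8 was highest with 11.00. ISG15, IFI6 and IFI27 were highest in run 1, with 13.99, 13.49 and 11.60, where the list as a whole was at 0.00. The members thus did not all keep the same order of runs.

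The promoters of the interferon-stimulated list were searched for the core of the interferon-stimulated response element, that is, GAAA, any 2 bases and GAAA again, on either strand, in the window from 250 bases before to 50 after the start (RefSeq, GRCh38.p14). The motif was present in 20 of 30 matched promoters of the list (66.7%) and in 20 of the 27 above background (74.1%), against 1255 of 35116 promoters of all genes (3.57%). The members were chosen as interferon-induced genes, so the share describes the list, and its bearing on the run pattern was not tested. The stretches upstream of the start for the 5 members above background with the largest spread between runs and a match there follow, on the strand of the gene, with the matches within each stretch in capitals (TTTC, 2 bases and TTTC is the same motif on the other strand).
IFI44L: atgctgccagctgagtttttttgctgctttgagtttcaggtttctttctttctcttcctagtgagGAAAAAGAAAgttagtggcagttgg
IFITM1: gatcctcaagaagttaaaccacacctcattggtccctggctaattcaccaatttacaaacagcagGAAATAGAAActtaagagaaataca
IFIT1: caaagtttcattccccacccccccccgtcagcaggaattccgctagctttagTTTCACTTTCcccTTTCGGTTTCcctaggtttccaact
IFI27: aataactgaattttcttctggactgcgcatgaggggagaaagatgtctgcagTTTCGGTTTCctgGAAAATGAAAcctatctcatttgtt
IFIT3: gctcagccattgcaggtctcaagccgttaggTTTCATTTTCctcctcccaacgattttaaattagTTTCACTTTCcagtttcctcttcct
They lie at IFI44L chr1:78620310-78620399, IFITM1 chr11:313935-314024, IFIT1 chr10:89392455-89392544, IFI27 chr14:94110576-94110665, IFIT3 chr10:89327810-89327899, all on the plus strand of GRCh38.p14. IFIT1 has both copies within a short distance, IFI27 has a copy on each strand, and a match is a description of the letters, not of a factor bound there. MX1 holds a match in its window but not upstream of the start, and OAS1, with run means between 7.93 and 11.63 (11.32 without the array labelled GM 15), holds none.

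Many genes of the amino acid and ER stress responses were highest in run 8. The list of ATF4 targets and ER stress genes had 22 of 24 members above background (91.7%, against 45.8% of all genes). It lay 0.95 above its mean in run 8 and within −0.37 and 0.28 in every other run. ASNS, asparagine synthetase, had a run mean of 14.10 there, the highest of all runs, and 10.16 in run 12. TRIB3, a pseudokinase induced by ATF4, was at 14.00 in run 8 and between 11.36 and 13.17 elsewhere, HERPUD1 at 12.28 and between 8.98 and 11.24, and the cystine transporter SLC7A11 at 12.52 and between 8.94 and 11.42. The chaperone HSPA5 was highest in runs 13 and 17 instead, with 14.76 and 14.75, as were HYOU1 and PDIA4 in run 13. Run 8 also had the highest mean ACTB 3′ minus 5′ difference, 1.12, with the array labelled GM 22. Its part in these values was not tested, and without that array, GM 9 and GM 15 the list lay 0.93 above its mean in run 8.

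Immediate early genes and MAPK feedback regulators were highest in runs 10 and 8, at 1.01 and 0.84 above their mean, and lowest in run 17 at −0.76. EGR3, a transcription factor induced by growth factor signals, had run means of 12.77 in run 10 and 11.85 in run 8, and at most 9.69 in the others. FOS and DUSP1 were highest in run 10 with 10.54 and 13.42, and CCN2, whose median was just below background, reached 12.65 there against 6.42 in run 1. DUSP6, a MAPK phosphatase, had 10.76 in run 17 and a median over arrays of 13.18. The growth factors of the EGF receptor followed: TGFA, EREG and HBEGF had their highest run means in run 10 (13.11, 13.56 and 10.76).

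IL1A and the plasminogen system were low where those genes were low. IL1A had run means of 8.81 and 9.13 in runs 13 and 17 and between 10.68 and 13.11 in the others, so these runs lay apart. SERPINB5, the serpin maspin, had 11.74 and 11.53 in the same runs and between 12.76 and 14.31 in the others. SERPINB2 had 10.82 in run 17, 11.19 in run 11 and 11.48 in run 13, against 14.52 in run 10. PLAU, urokinase, ranged from 9.35 in run 17 to 12.05 in run 16.

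Genes of the cell cycle, of hypoxia and glycolysis, and of matrix and proteases varied as well. The median between-run SDs of their members above background were 0.505, 0.543 and 0.651. The cell cycle list lay 0.59 and 0.66 above its mean in runs 12 and 15 and between −0.48 and −0.44 in runs 1, 2, 3 and 13. CDK1, the mitotic kinase, had 13.65 in run 15 and 11.07 in run 2. The hypoxia and glycolysis list was highest in run 1 at 0.58, with the HIF target NDRG1 at 14.28 there and 11.79 in run 11. Among matrix genes MMP1, interstitial collagenase, ranged from 5.46 in run 17 to 11.23 in run 16 and MMP9 from 8.40 in run 11 to 11.60 in run 5. Without the array labelled GM 15 MMP9 was highest in run 2, with 11.28. The mitochondrially encoded COX1 was lowest in run 13 with 12.51, against a median of 14.96.

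A few genes lay far lower or higher in particular runs than in all others. Of 9050 genes with a mean above background 41 had both run means of runs 2 and 3 at least 1 below every other run, and 9 at least 1 above. MICB had 5.41 and 5.33 in runs 2 and 3 and between 10.09 and 12.32 in the other 16. TSPYL5 had 4.05 and 4.43 there, and ZNF506, TRIM24, GSPT2 and the zinc finger genes ZNF880 and ZNF677 were among the others (ZNF506, TRIM24, GSPT2, MALT1, GJB2, GJB6, LORICRIN, FLG, CNFN, NOD2 and CXCL10 are named because of their values). Single arrays of these runs were alike: the 6 arrays of runs 2 and 3 had MICB values between 4.66 and 5.94. FAM76B was an exception, with 4.85 and 6.42 in GM 7 and GM 8 and 11.93 in the array labelled GM 9, and it had 10.35 and 7.48 in GM 13 and GM 14 and 8.21 in GM 51. Its within-run SD was 1.25, the widest of the 30 most variable genes.

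Runs 12, 13 and 17 formed a second such set, with 12 genes lower and 10 genes higher than in any other run by at least 1. CCN6 had 4.14, 4.17 and 4.15 in these runs and between 7.72 and 10.33 in the other 15. GPX3 was low there as well, down to 5.34. NEDD4L, a ubiquitin ligase of ion channels, had 13.98, 14.08 and 14.02 against at most 11.18 elsewhere, and the paracaspase MALT1, which acts in NFκB signalling, reached 13.54 in run 12 with a median over arrays of 10.17. In runs 13 and 17 taken as a pair 18 genes were lower than in any other run by at least 1, among them APCDD1L and the gap junction genes GJB2 and GJB6.

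Arrays of 1 run resembled each other, and some runs resembled other runs. Over 16377 probesets the deviations of 2 arrays of the same run from the GM mean correlated at a median r of 0.817 (52 pairs), those of neighbouring runs at 0.109 (150 pairs) and those of other runs at −0.111 (1176 pairs); the pairs share the mean from which they deviate. Among run means the most alike were runs 2 and 3 (r = 0.932), 7 and 11 (0.815), 11 and 18 (0.77), 13 and 17 (0.758) and 4 and 5 (0.688). Runs with close numbers were thus not always alike, and distant ones could be.

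The treated arrays carried some of the same run patterns. MICB had a run mean of 5.35 in HEC run 2, 5.21 in CMC run 1 and 6.95 in N-9 run 2, and TSPYL5 had 4.50, 5.06 and 3.68 in these runs, against 5.41 and 5.33 for MICB and 4.05 and 4.43 for TSPYL5 in GM runs 2 and 3. The other 14 treated runs had MICB between 10.01 and 11.59. No treated run had the pattern of GM runs 12, 13 and 17: CCN6 lay between 8.03 and 10.44 and NEDD4L between 9.29 and 11.41 in the 17 treated runs, against 4.14 to 4.17 and 13.98 to 14.08 in those GM runs. IVL was 12.27 or higher in CMC run 3 and in the second runs of imiquimod, MALP2, Pam3CSK4 (13.90) and TNF-α, against 14.14 in GM run 15. MX1 reached 13.74 in MALP2 run 1, against at most 12.64 in a GM run, or 12.50 without the array labelled GM 15.

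The share of genes whose treated run mean fell outside the whole range of the 18 GM run means overlapped between gels and PICs. Among the 6 gel runs it was 22.8% in HEC run 2 and 24.4% in CMC run 1, and between 3.16% (CMC run 3) and 7.65% (HEC run 1) in the other 4. Among the PICs it was 8.89% and 4.86% in the TNF-α runs (the second of 2 arrays), 8.13% and 6.57% in those of Pam3CSK4, 13.8% and 15.7% in those of MALP2, 21.9% and 15.8% in those of imiquimod, and between 20.1% and 30.9% in the 3 runs of N-9. Among the GM runs the share of the 9012 genes for which a run was the highest or the lowest of the 18 was between 2.80% (run 6) and 30.4% (run 2).

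The 20 PIC discriminatory genes (PIC-DGs), a list that was drawn up in the study from the response of these same arrays, varied in untreated cells as well. Of the 20, 14 were above background (70%, against 45.8% of all genes), with a median between-run SD of 0.853. Their mean deviation was 0.91 in run 10, 0.71 in run 5 and −0.93 in run 17, and in run 5 it was 0.12 without the arrays labelled GM 9, 15 and 22. Averaged over the 20 genes by array, the PIC arrays lay between 1.22 and 3.35 and the NIC arrays between −1.26 and 0.47, against −1.17 to 0.97 for GM, and the array labelled GM 15 lay at 2.24. Since the genes were chosen on these arrays, the separation is a description.

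Gene by gene, the PIC run means cleared the range of the GM runs in most but not all cases. Of 220 run means (20 genes in 11 PIC runs) 132 lay above the highest and 7 below the lowest GM run mean, and of 120 NIC run means 0 lay above and 15 below. Over all 9012 genes above background the share outside the GM range was 4.86% to 30.9% in the PIC runs. In the gel runs it was 3.16% to 24.4%, so the 15 NIC run means are not read as a trait of the PIC-DGs. Without the array labelled GM 15, 142 of the 220 lay outside the GM range, 9 of them below it. For TNFAIP3, NFKBIZ, CXCL2, OLR1, CXCL3 and CXCL8, 10 of 11 PIC runs lay above every GM run. For SPRR2B, a cornified envelope precursor, 1 of 11 did so, with GM run 15 at 14.24. TNFAIP3 had a between-run SD of 0.409 and a within-run SD of 0.434, both with the array labelled GM 15 included. That array measured 13.34, against 10.46 and 10.21 in its run mates, and this gap enters the within-run SD. The highest GM run mean of TNFAIP3, 11.33 in run 5, was 10.88 without the array labelled GM 15, below all 11 PIC runs and below 1 NIC run.

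**Figure D5:**
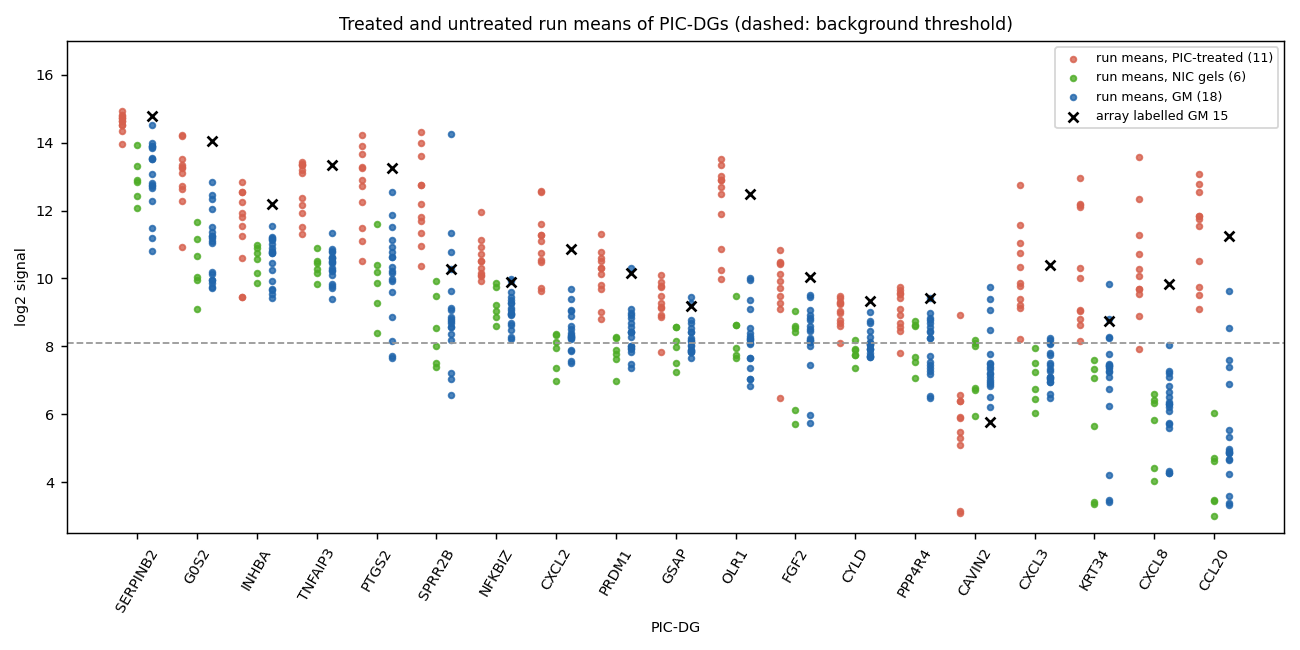
Run means (log2 signal) of PIC-DGs in 11 PIC-treated runs (red), 6 NIC runs (green) and 18 GM runs (blue), with the array labelled GM 15 as a cross and the background threshold of 8.11 dashed. For TNFAIP3, OLR1 and CXCL8, 10 of 11 PIC runs lie above every GM run, whereas GM run 15 reaches 14.24 for SPRR2B.

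The genes with the smallest SD over the arrays were mostly those of the ribosome and translation, and all 10 had medians between 14.73 and 15.05, near the highest signal of any GM array, 15.31. Quantile normalization gives every array the same highest values, so little spread can be seen there, and its part in these SDs was not tested. RPS16 had an SD over the 53 arrays of 0.0331, RPS10 of 0.0393, EEF1A1 of 0.0405, PPIA, a cyclophilin, of 0.0411 and TPT1 of 0.0424. Their run means spanned 0.11 to 0.16, and none passed the F test of limma (adjusted p between 0.596 and 0.956). That test draws the within-run variance of each probeset toward that of all probesets, whose within-run SD had a median of 0.493. Genes of so small a spread could thus hardly pass, and the result does not show that their run means were equal. GAPDH had an SD of 0.106 and run means between 14.24 and 14.60. It did pass, with an adjusted p of 5.33e-05 in limma, and so did KRT5 (adjusted p = 0.00252), with run means between 14.28 and 14.63. HPRT1, often used as a reference, had a median of 13.06 (12.65 to 13.33) in the 39 GM arrays of the common order, by a probeset that was left out for its order. The probeset kept for it had a median of 4.11, below background.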

How the data were processed

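RNA of Vk2/E6E7 cells was hybridized to 105 U133 Plus 2.0 arrays. The authors deposited a log2 signal for each probeset and array. MAS5 and GCOS 1.3 are named in the submitters' processing notes, whereas the methods describe RMA, and background in dim probesets depends on which was used. The members, gene lists and tests were chosen with earlier results of these data known.

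Arrays without GM 52 (whose rows follow some unknown order) and TNF-α 6 (a mean of other arrays) were quantile normalized, 103 in all. Of 54675 probesets 62 controls were left out, and so were 1118 that 23 arrays list in another order, a departure from the design. In the platform annotation 41097 probesets name 1 gene, 1801 several, and 11777 are not listed. SERPINB2, KRT34 and 1 further gene, which is not reported here, were named from the study's supplementary list, and the probeset of KRT34 has a second gene in the annotation. Runs were compared in limma 3.58.1 (R 4.3.3) by a moderated F test with Benjamini-Hochberg adjustment over 53495 probesets. SDs between and within runs came from mean squares. The number of arrays limits the precision. The steps were tested on simulated data.

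Genes named are the 30 with the highest median, the 30 with the largest and 10 with the smallest spread, list members by state and spread, the receptors of the ligands and the PIC-DGs. Others are marked. The sample labels gave the groups, and 0 columns of other samples were present.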

Additional observations from a re-analysis of the deposited data

How the results depend on the processing

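The count of probesets that differed between runs, 32085, lay between 30441 and 34526 under deposited values, quantile normalization over GM arrays alone, an offset of 16, the methods' analysis of variance, covariates for array median and ACTB 3′ minus 5′, and, chosen after seeing the data, all rows as deposited (33024), rows put back by identifier (32592), and leaving out the arrays labelled GM 15 (32215) or GM 9, 15 and 22 (32264). Only the 16285 probesets with a mean above background gave 16049, since fewer were tested (98.6% of them). Leaving out 1 array of each run gave 23963 to 27073, and leaving out each run in turn 30554 to 32200. The median between-run SD stayed between 0.291 and 0.311, the within-run SD between 0.137 and 0.156. The number of probesets above background, 16377, was 20613 with the 90th percentile, 18325 with olfactory receptor genes and 14434 where 80% of arrays had to pass. IL15, MMP10, CDKN2B, EGR3, SAMD9L, IL1RL1, KRT4 and SBSN lost that state under 8 to 14 settings. The count of PIC run means outside the GM range, 139, was 142 to 144 under other settings and 139 to 160 without 1 run, highest without run 15. No paired analysis was possible because the runs were compared within the GM group, and replicate numbers of different groups are not said to pair arrays.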
